A study of Mus musculus with 12 samples.

Results

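The 9 genes Gsx1, Gsx2, Dlx1, Dlx2, Dlx5, Dlx6, Nkx2-1, Isl1 and Sp8 were followed across all 6 groups of a mouse embryonic stem (ES) cell differentiation study. They were taken as every probe set whose only gene symbol in the array's annotation was one of these names, which gave 10 of the 45101 probe sets of the deposited table: Isl1 had 2 probe sets and each other gene had 1. Apart from 64 control probe sets, 45037 probe sets were tested, and 34945 of them carried 1 gene symbol, for 18193 genes in all. No probe set with several symbols held any of the 9.

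Gsx1 and Gsx2 are homeobox factors of dividing progenitors in the ventral telencephalon, where they act upstream of the Dlx genes. Dlx1 and Dlx2, and Dlx5 and Dlx6, are pairs of distal-less homeobox genes that switch on in sequence as these progenitors turn into GABAergic neurons, the inhibitory neurons of the forebrain. Nkx2-1 specifies the medial ganglionic eminence and also acts in the hypothalamus, thyroid and lung; Isl1, a LIM-homeodomain factor, marks striatal precursors and is widely used by motor and sensory neurons; Sp8 is a zinc finger factor of the lateral and caudal ganglionic eminences, of the anterior cortex and of interneurons bound for the olfactory bulb. Several of the 9 genes are also used outside the telencephalon, Gsx1 and Gsx2 in the hindbrain and spinal cord and Dlx5 and Dlx6 in branchial arches and placodes.

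The cells were differentiated as a monolayer in N2B27, a serum-free neural medium, and 12 arrays were made, 2 per group. The rtTA-Dmrt5 line carries the rtTA activator and a Dmrt5 transgene that doxycycline (Dox) induces, and was harvested at day 9 with Dox, at day 9 without Dox, at day 7 with Dox and at day 7 without Dox. The parental rtTA line, which carries the activator alone by its name, was harvested at day 7 with and without Dox, and was not measured here at day 9. Dox was added at day 5. Whether a line is 1 clone is not stated in what was used here. Nor do the labels tell whether both arrays of a group stem from separate cultures, and the p-values then cover only the spread among these arrays, possibly a technical one.

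Each deposited value is a log2 difference from that probe set's own median over the 12 arrays, so values compare arrays within a probe set and never one gene with another. Dmrta2, the gene also called Dmrt5, checks the labels first. Its probe set read -1.07 and -1.92 in rtTA-Dmrt5 arrays labelled day 9 +Dox, against 1.07 and 1.16 in those labelled day 9 -Dox, and it read -0.14 and -0.95 in arrays labelled day 7 +Dox, against 1.91 and 1.85 in those labelled day 7 -Dox. In rtTA cells it read 0.41 and -0.28 in arrays labelled +Dox, against -0.22 and 0.14 in arrays labelled -Dox. The log2 difference was -2.61 at day 9 (limma adjusted p = 0.000823) and -2.42 at day 7 (limma adjusted p = 0.00318). The probe set of the induced gene was thus lower in the arrays labelled +Dox, which goes against a plain reading of the label; the sources do not give whether the transgene holds the stretch of RNA that it reads. Every direction below rests on the labels as deposited. Median log2 levels were recovered from the spacing of the numbers. All 15 pan-neuronal genes and all 8 measured telencephalon genes had a probe set at 4 or above. The same held for all 11 endoderm, 11 neural crest, 12 ES cell and 13 measured surface epithelium and placode genes. It held for 9 of 10 hypothalamus and eye field genes and 4 of 9 measured motor and sensory neuron genes. Of all probe sets, 39.6% lay between 4 and 8 and 19.5% at 8 or more. A level of 4 or above therefore does not tell these cell types apart. The spike-in controls averaged -0.79 and -0.66 in the 2 rtTA-Dmrt5 arrays labelled day 9 +Dox, against -0.34 to 0.19 in the other 10 arrays. The centred value of the 3′ Actb control minus that of the 5′ one was 0.23 and 0.20 in those 2 arrays, against -0.05 and 0.00 in day 9 -Dox arrays, -0.13 to 0.07 in the 4 rtTA-Dmrt5 day 7 arrays and -0.37 to -0.20 in the 4 rtTA arrays. It thus also separated the lines at day 7. The part of both measures in the results at day 9, and of the Actb measure in those between lines, was not tested.

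The promoters of the 5 genes that fell in rtTA-Dmrt5 arrays labelled day 9 +Dox are shown first, since the day 9 results turn on these genes. They are RefSeq sequences of GRCm38.p6, from 250 bases before to 50 bases after a transcription start, and capitals mark TAATTA, a core bound by many homeodomain factors, ACATTGT, a core of the DNA motif of Dmrt factors, the CCAAT box and the TATA box TATAAA, each searched on both strands with no overlap between the marked stretches. Promoters were found for 7 of the 9 genes; Dlx5 and Dlx6 had none in the table.
Gsx1, chr5:147188446-147188745, plus strand: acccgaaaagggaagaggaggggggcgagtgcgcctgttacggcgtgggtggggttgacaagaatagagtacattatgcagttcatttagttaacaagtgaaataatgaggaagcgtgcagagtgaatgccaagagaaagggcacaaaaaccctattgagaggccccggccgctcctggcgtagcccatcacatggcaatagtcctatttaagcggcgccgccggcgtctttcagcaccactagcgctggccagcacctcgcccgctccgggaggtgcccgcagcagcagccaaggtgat
Isl1, chr13:116309639-116309938, minus strand: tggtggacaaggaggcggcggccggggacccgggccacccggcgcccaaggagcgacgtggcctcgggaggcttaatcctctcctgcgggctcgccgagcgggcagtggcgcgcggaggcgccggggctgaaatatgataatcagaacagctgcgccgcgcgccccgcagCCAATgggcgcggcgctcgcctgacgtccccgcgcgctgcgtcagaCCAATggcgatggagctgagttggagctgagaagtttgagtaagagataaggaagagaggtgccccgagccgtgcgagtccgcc
Sp8, chr12:118847309-118847608, plus strand: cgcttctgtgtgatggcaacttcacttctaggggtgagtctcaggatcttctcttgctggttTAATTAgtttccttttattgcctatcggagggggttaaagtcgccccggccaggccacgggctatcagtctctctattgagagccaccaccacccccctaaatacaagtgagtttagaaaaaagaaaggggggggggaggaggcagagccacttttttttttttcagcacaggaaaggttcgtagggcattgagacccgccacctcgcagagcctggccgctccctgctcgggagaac
Dlx1, chr2:71529195-71529494, plus strand: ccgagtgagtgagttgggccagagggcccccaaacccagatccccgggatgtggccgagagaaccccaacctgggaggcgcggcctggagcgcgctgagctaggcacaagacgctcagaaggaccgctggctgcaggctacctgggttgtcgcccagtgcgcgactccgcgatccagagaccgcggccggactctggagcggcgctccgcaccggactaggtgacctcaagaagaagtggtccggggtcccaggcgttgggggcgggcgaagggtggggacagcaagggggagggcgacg
Dlx2, chr2:71546705-71547004, minus strand: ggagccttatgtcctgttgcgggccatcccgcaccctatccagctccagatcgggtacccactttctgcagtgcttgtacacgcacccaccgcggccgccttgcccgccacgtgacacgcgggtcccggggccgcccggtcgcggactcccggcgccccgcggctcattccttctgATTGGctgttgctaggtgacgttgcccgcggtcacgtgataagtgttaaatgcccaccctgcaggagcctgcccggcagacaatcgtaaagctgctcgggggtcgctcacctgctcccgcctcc
The Isl1 promoter held CCAAT at 80 and 34 bases before the start, and the Dlx2 promoter held it on the opposite strand, as ATTGG, at 74 bases before the start. Sp8 has 3 starts in the table, of which the one shown is the last along the chromosome; it held TAATTA at 188 bases before the start. The first Sp8 start held CCAAT at 84 bases and TATAAA at 230 and 118 bases before it, the second held CCAAT on the opposite strand at 77 bases before it, and neither held TAATTA. The promoters of Gsx1, Dlx1 and Nkx2-1 held none of the 4 motifs, and Gsx2 held TATAAA at 38 bases before its start. ACATTGT was in none of the 9 promoters of these genes, against 2.96% of all 32851 promoters in the table; TAATTA was in 5.29%, CCAAT in 37.4% and TATAAA in 13.6% of all. The G and C content was 69.3% for Dlx1, 69% for Isl1, 66.3% for Dlx2, 63% for Gsx2, 57% for Gsx1, 53.7% for Nkx2-1 and 43%, 61% and 53% for the Sp8 starts, against a median of 52.7% over all promoters. These matches describe letters in a window and were not set against binding. In the genome, Dlx1 and Dlx2 are next to each other on chromosome 2, as are Dlx6 and Dlx5 on chromosome 6, while Gsx1 lies beside Pdx1, Nkx2-1 beside Nkx2-9 and Sp8 beside Sp4 among protein-coding genes.

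The first question was what Dox did in rtTA-Dmrt5 cells. Gsx1, Isl1, Sp8, Dlx1 and Dlx2 fell in arrays labelled day 9 +Dox relative to those labelled day 9 -Dox, and Gsx1, Isl1 and Sp8 fell in arrays labelled day 7 +Dox relative to day 7 -Dox. Gsx2, Dlx5, Dlx6 and Nkx2-1 did not pass the test at either day, and no probe set of the 9 genes rose. Called means a Benjamini-Hochberg adjusted p under 0.05 in limma over all 45037 probe sets of a comparison. At day 9, 6 of the 10 probe sets (5 of 9 genes) were called lower, where 7.95% of all probe sets were called lower and 10.3% higher. At day 7, 4 of 10 (3 of 9 genes) were called lower, where 1.79% of all were called lower and 1.26% higher. The called probe sets of these genes all lay at 4 or above in median log2 level. In a fit of the probe sets at 4 or above alone, 32.8% were called in either direction at day 9 and 6.89% at day 7. Over all probe sets these shares were 18.3% and 3.05%. The median log2 difference of the 10 probe sets was -1.50 at day 9 and -0.76 at day 7, against -0.02 and 0.01 over all probe sets. In RNA of whole cultures, fewer cells that express a gene and less of its RNA per cell cannot be told apart.

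**Figure D1:**
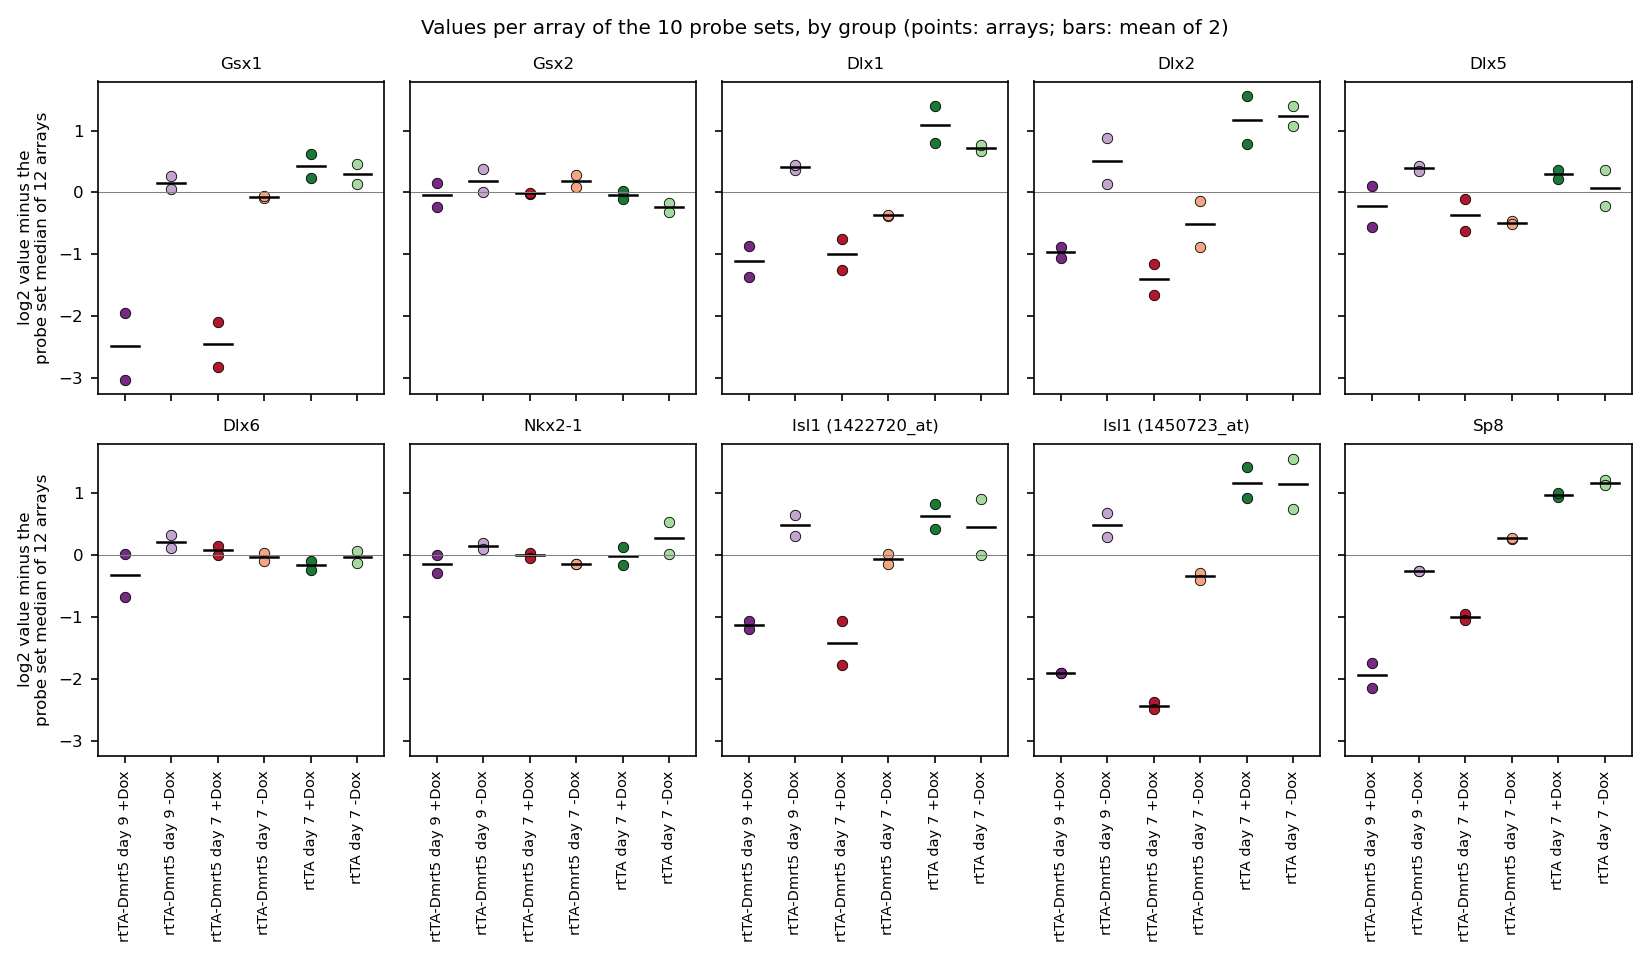
Values of the 10 probe sets in each array, as log2 value minus the probe set's median over 12 arrays (y axis), by group as labelled (x axis); points are arrays and bars are means of 2. Gsx1, Isl1 and Sp8 are lowest in both rtTA-Dmrt5 groups labelled +Dox, with Gsx1 between -3.02 and -1.95 there and between -0.08 and 0.62 in the other arrays, while Gsx2, Dlx6 and Nkx2-1 stay within 1 log2 unit over all arrays.

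Among the progenitor factors, Gsx1 and Gsx2 gave unlike values. Gsx1 read -1.95 and -3.02 in rtTA-Dmrt5 arrays labelled day 9 +Dox, against 0.05 and 0.26 in those labelled day 9 -Dox. It read -2.10 and -2.81 in arrays labelled day 7 +Dox, against -0.08 and -0.05 in those labelled day 7 -Dox. All 4 arrays labelled +Dox lay well below all 4 labelled -Dox, and the spread within the +Dox pairs was the wider. The log2 difference was -2.64 ± 0.33 (SE) at day 9 with an adjusted p of 0.00075 in limma, and -2.38 ± 0.33 at day 7 with an adjusted p of 0.0033, with 2 arrays per group here and throughout. Gsx2 ranged from -0.23 to 0.16 in day 9 +Dox arrays, against 0.01 to 0.37 in day 9 -Dox arrays, with ranges that overlapped. At day 7 Gsx2 was -0.02 and -0.01 in +Dox arrays, against 0.09 and 0.28 in -Dox arrays, which did not overlap. Its log2 difference was -0.22 at day 9 (95% interval -0.58 to 0.14) and -0.20 at day 7 (-0.56 to 0.17), and neither passed the test in limma. The Gsx2 probe set was dim, with a median log2 level between 2 and 4, and the Gsx1 probe set lay between 4 and 8. Of all probe sets, 34.1% were in the 2 to 4 class and 39.6% in the 4 to 8 class. Whether so dim a probe set can show a fall of the size seen for Gsx1 was not tested, so the intervals do not exclude one.

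Isl1 fell by both of its probe sets at both days. The probe set 1450723_at read -1.92 and -1.91 in arrays labelled day 9 +Dox, against 0.29 and 0.67 in day 9 -Dox arrays. It read -2.38 and -2.50 in arrays labelled day 7 +Dox, against -0.29 and -0.41 in day 7 -Dox arrays. The pairs were tight beside the gap between them. Its log2 difference was -2.39 ± 0.25 at day 9 (limma adjusted p = 0.00035) and -2.09 ± 0.25 at day 7 (limma adjusted p = 0.0016). The other probe set, 1422720_at, read -1.20 and -1.08 in day 9 +Dox arrays, against 0.64 and 0.30 in day 9 -Dox arrays. At day 7 it read -1.07 and -1.78 in +Dox arrays, against -0.15 and 0.00 in -Dox arrays. Again no +Dox array reached a -Dox array of the same day, with log2 differences of -1.61 ± 0.30 (adjusted p = 0.0057) at day 9 and -1.35 ± 0.30 (adjusted p = 0.042) at day 7, both from limma. The day 7 call of 1422720_at was lost in 9 of the 12 fits that left out 1 array, with adjusted p from 0.0539 to 0.287. It was kept without either rtTA -Dox array and without the first rtTA-Dmrt5 day 7 +Dox array. The call of 1450723_at at day 7 was kept in each of the 12.

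Sp8 had the smallest standard error of the 10 probe sets and the brightest probe set, the only one of them in the class of 8 or more. It read -1.75 and -2.15 in arrays labelled day 9 +Dox, against -0.27 and -0.26 in day 9 -Dox arrays. It read -0.95 and -1.05 in arrays labelled day 7 +Dox, against 0.26 and 0.27 in day 7 -Dox arrays. No array of one group came near the other group of its day. The log2 difference was -1.69 ± 0.13 at day 9 (limma adjusted p = 8.1e-05) and -1.27 ± 0.13 at day 7 (limma adjusted p = 0.00072).

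The neighbours Dlx1 and Dlx2 were called at day 9 and not at day 7. Dlx1 read -1.36 and -0.86 in arrays labelled day 9 +Dox, against 0.36 and 0.45 in day 9 -Dox arrays. Dlx2 read -1.06 and -0.87 in arrays labelled day 9 +Dox, against 0.14 and 0.89 in day 9 -Dox arrays. In both genes the +Dox pair lay below the -Dox pair. The log2 difference was -1.51 ± 0.23 for Dlx1 (limma adjusted p = 0.0021) and -1.48 ± 0.34 for Dlx2 (limma adjusted p = 0.015). The Dlx2 call was lost without the second day 9 -Dox array (-1.11, adjusted p = 0.0936) and without the first day 9 +Dox array (-1.39, adjusted p = 0.0826). At day 7 Dlx1 read -0.75 and -1.25 in +Dox arrays, against -0.37 and -0.36 in -Dox arrays, a log2 difference of -0.63 ± 0.23 with an adjusted p of 0.22 in limma. Dlx2 read -1.66 and -1.15 in day 7 +Dox arrays, against -0.14 and -0.88 in day 7 -Dox arrays, a log2 difference of -0.89 ± 0.34 with an adjusted p of 0.24 in limma. In neither did the pairs overlap at day 7, but the differences did not pass the test, with 95% intervals of -1.14 to -0.12 for Dlx1 and -1.65 to -0.13 for Dlx2.

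Dlx5 and Dlx6, the later pair of the cascade, gave smaller values. Dlx5 read -0.56 and 0.11 in arrays labelled day 9 +Dox, against 0.43 and 0.35 in day 9 -Dox arrays, and Dlx6 read -0.68 and 0.01, against 0.32 and 0.10. The pairs did not overlap in either gene, but the second +Dox array was close to the -Dox pair in both. The log2 differences were -0.62 ± 0.25 (adjusted p = 0.12) for Dlx5 and -0.54 ± 0.20 (adjusted p = 0.089) for Dlx6 in limma, so neither passed. Without that second day 9 +Dox array they were -0.95 (adjusted p = 0.0389) and -0.89 (adjusted p = 0.00765), and both were called. Without the first day 9 +Dox array they were -0.28 (adjusted p = 0.55) and -0.20 (adjusted p = 0.482). At day 7 the pairs overlapped in both genes, with log2 differences of 0.12 (95% interval -0.43 to 0.68) for Dlx5 and 0.10 (-0.34 to 0.55) for Dlx6. The Dlx6 probe set was in the dim 2 to 4 class and the Dlx5 probe set in the 4 to 8 class.

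Nkx2-1 varied little. It read -0.01 and -0.30 in arrays labelled day 9 +Dox, against 0.19 and 0.10 in day 9 -Dox arrays, and 0.03 and -0.06 in day 7 +Dox arrays, against -0.15 and -0.15 in day 7 -Dox arrays. The +Dox pair was below the -Dox pair at day 9 and above it at day 7. The log2 difference was -0.30 at day 9 (95% interval -0.69 to 0.10) and 0.14 at day 7 (-0.26 to 0.53), and neither passed the test in limma.

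**Figure D2:**
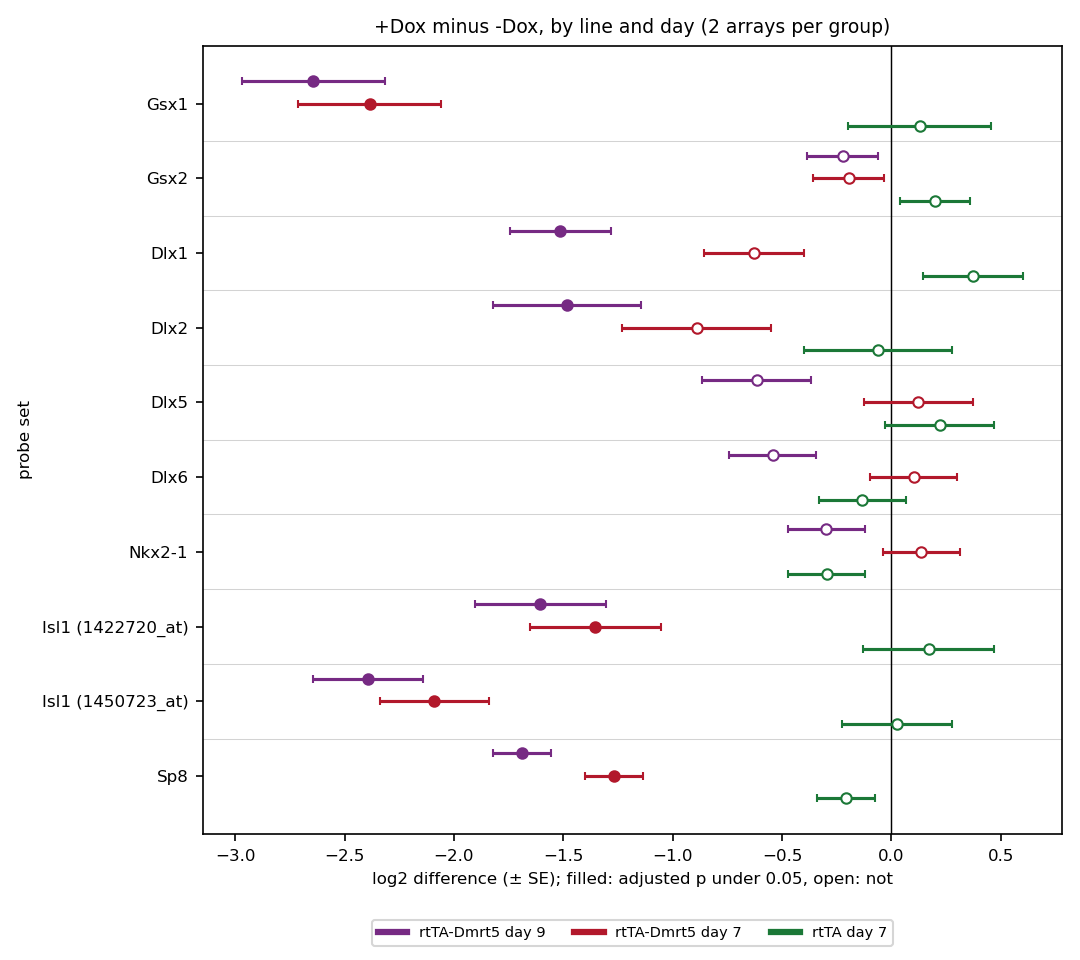
Log2 difference between arrays labelled +Dox and -Dox (x axis; points with SE, 2 arrays per group) for each probe set (y axis) in rtTA-Dmrt5 cells at day 9 and day 7 and in rtTA cells at day 7; filled points have an adjusted p under 0.05. Gsx1, both Isl1 probe sets and Sp8 are filled at both days, Dlx1 and Dlx2 at day 9, and no rtTA point is filled.

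The parental line asks what Dox does without the transgene. No probe set of the 9 genes was called in rtTA cells at day 7, where 0% of all probe sets were called higher and 0% lower; at an unadjusted p under 0.05 limma gave 0 of the 10 and 2323 of all 45037. A fit with the replicate number as a block likewise called none of the 10. Gsx1 read 0.62 and 0.23 in rtTA +Dox arrays, against 0.46 and 0.13 in rtTA -Dox arrays, and Sp8 read 0.92 and 0.99, against 1.21 and 1.12. For Isl1 1450723_at the values were 1.41 and 0.91 in rtTA +Dox arrays, against 0.73 and 1.55 in rtTA -Dox arrays. The pairs overlapped for Gsx1 and for both Isl1 probe sets, and did not overlap for Sp8, Dlx1 and Gsx2, where they were close. The log2 differences ran from -0.30 for Nkx2-1 to 0.37 for Dlx1, with 95% intervals of -0.60 to 0.86 for Gsx1, -0.54 to 0.58 for Isl1 1450723_at and -0.50 to 0.09 for Sp8.

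The difference of the day 7 Dox response between the lines was tested directly, in a contrast that shares its rtTA-Dmrt5 arrays with the day 7 response. It was -2.51 ± 0.46 for Gsx1 (adjusted p = 0.036), -2.11 ± 0.35 for Isl1 1450723_at (adjusted p = 0.024) and -1.06 ± 0.19 for Sp8 (adjusted p = 0.03), all rtTA-Dmrt5 minus rtTA in limma. These 3 of 10 probe sets were called lower, where 0.739% of all were called lower and 0.3% higher. In the fit of probe sets at a level of 4 or above alone, 2.46% were called in either direction, against 1.04% over all. Isl1 1422720_at had -1.52 ± 0.42 (adjusted p = 0.16) and Dlx1 had -1.0 ± 0.32 (adjusted p = 0.24). The 3 calls were close to the threshold. Leaving out 1 array ended the Sp8 call in 10 of 12 fits (adjusted p from 0.0543 to 0.134), all but those without a day 9 +Dox array. It ended the Gsx1 call in 9 of 12 (0.0596 to 0.134), all but those without a day 9 +Dox array or the first day 7 rtTA-Dmrt5 +Dox array. It ended the Isl1 call in 5 of 12 (0.069 to 0.105), which were those without the first rtTA +Dox array or any of the 4 rtTA-Dmrt5 day 7 arrays. The Isl1 call was also lost in the fit of the 8 day 7 arrays alone (adjusted p = 0.0602). For the difference of the Dox response between day 9 and day 7 in rtTA-Dmrt5 cells, no probe set of the 9 genes was called, where 0.639% of all were; at an unadjusted p under 0.05 limma gave 3 of the 10 and 6564 of all. The largest was that of Dlx1, -0.88 ± 0.32 with an adjusted p of 0.25 in limma, followed by Dlx5 with -0.74 ± 0.35 (adjusted p = 0.37). A call at day 9 and none at day 7 therefore does not show that the responses of Dlx1 and Dlx2 differ between the days.

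The change over time was read within each treatment of the rtTA-Dmrt5 line. Sp8 was lower at day 9 in both: it had -0.27 and -0.26 in day 9 -Dox arrays, against 0.26 and 0.27 in day 7 -Dox arrays, and -1.75 and -2.15 in day 9 +Dox arrays, against -0.95 and -1.05 in day 7 +Dox arrays. The groups were apart in both treatments. Day 9 minus day 7 was -0.53 ± 0.13 without Dox (adjusted p = 0.039) and -0.95 ± 0.13 with Dox (adjusted p = 0.0025) in limma. The first of these calls was lost in 10 of the 12 fits that left out 1 array, with adjusted p from 0.053 to 0.164, all but those without a day 9 +Dox array; the second was kept in all 12. Sp8 was the 1 of 10 probe sets called in each treatment, where 3.37% of all were called lower and 4.29% higher without Dox, and 3.92% lower and 5.18% higher with Dox.

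Without Dox, other members had higher values at day 9 that did not pass the test. Dlx2 gave 1.03 ± 0.34 (adjusted p = 0.11), Dlx5 gave 0.88 ± 0.25 (0.064), Isl1 1450723_at gave 0.83 ± 0.25 (0.08) and Dlx1 gave 0.77 ± 0.23 (0.074), all adjusted p from limma, and in each of these the day 9 pair lay above the day 7 pair. Fits that left out 1 array called Dlx1 without either rtTA +Dox array and Dlx5 without either day 9 +Dox array. They called Isl1 1450723_at without either rtTA -Dox array. All of these arrays lie outside this comparison, and leaving them out left the differences unchanged. Leaving out either day 9 -Dox array gave 0.73 and 0.82 for Dlx1, and 0.84 and 0.91 for Dlx5. For Isl1 1450723_at it gave 0.64 and 1.02, and none of these was called. With Dox, the corresponding differences were 0.44 for Dlx2, 0.14 for Dlx5, 0.53 for Isl1 1450723_at and -0.11 for Dlx1, and none was called. Dlx6 had -0.40 ± 0.20 with Dox (adjusted p = 0.27) and ran from -0.74 without the second day 9 +Dox array (adjusted p = 0.0262) to -0.05 without the first (adjusted p = 0.9). Gsx1 differed between the days by 0.23 without Dox (95% interval -0.50 to 0.95) and -0.03 with Dox (-0.76 to 0.70). Between the same days, 10 of 15 pan-neuronal genes were higher and none lower in each treatment, and of 12 genes of undifferentiated ES cells 10 were higher without Dox and 11 with Dox, with none lower; a gene is counted where any of its probe sets was called. Of all genes, 7.24% were higher and 6.11% lower at day 9 without Dox, and 9.49% higher and 6.59% lower with Dox. The part of these markers in the values of the 9 genes over time was not tested.

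**Figure D3:**
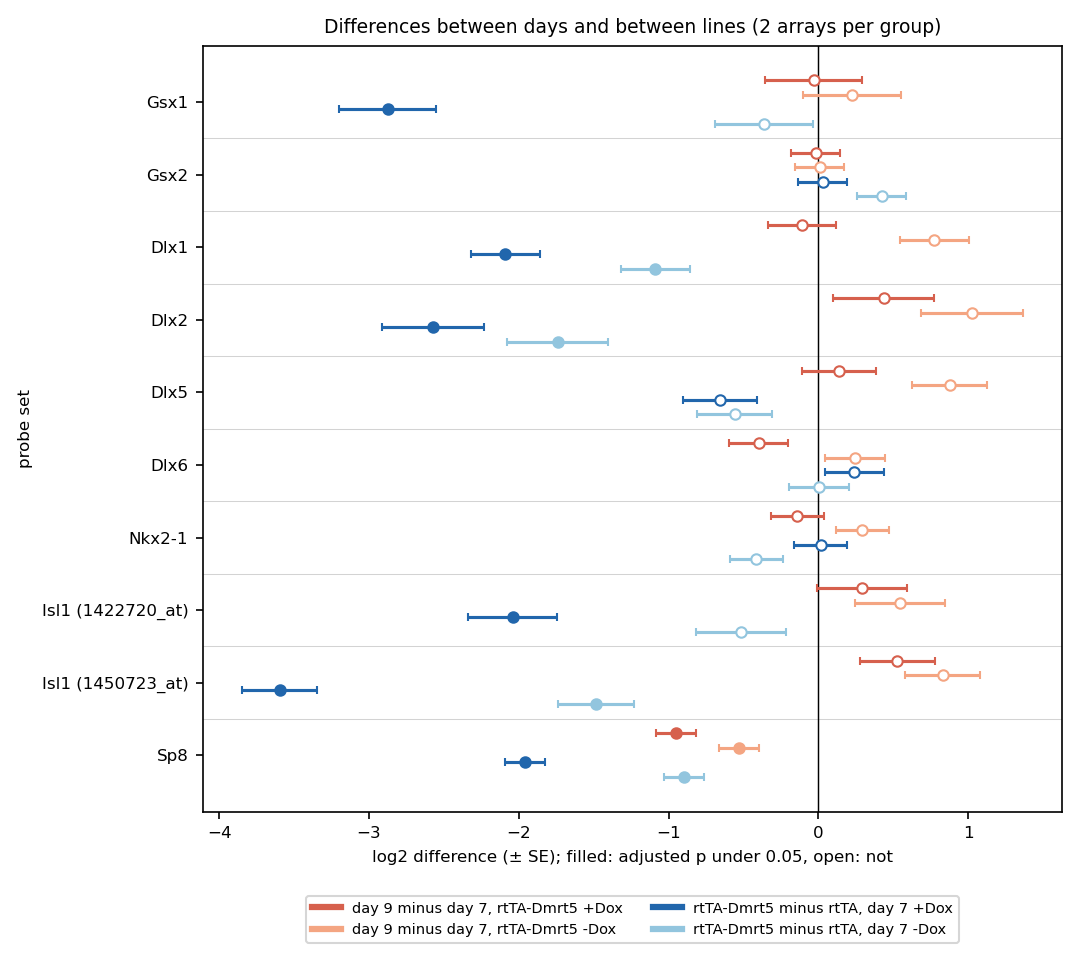
Log2 difference (x axis; points with SE, 2 arrays per group) for each probe set (y axis) between day 9 and day 7 in rtTA-Dmrt5 cells and between rtTA-Dmrt5 and rtTA cells at day 7, with and without Dox as labelled; filled points have an adjusted p under 0.05. Sp8 is filled in all 4 comparisons and lies to the left of 0 in each, and Isl1 1450723_at lies farthest left, at -3.60, between the lines with Dox.

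The lines also differed in arrays labelled -Dox. The Dmrta2 probe set was itself higher in rtTA-Dmrt5 than in rtTA cells there, by 1.92 (limma adjusted p = 0.00323). In arrays labelled day 7 -Dox, Dlx1, Dlx2, Isl1 and Sp8 were lower in rtTA-Dmrt5 cells than in rtTA cells. Dlx2 read -0.14 and -0.88 in rtTA-Dmrt5 -Dox arrays, against 1.39 and 1.07 in rtTA -Dox arrays. Dlx1 read -0.37 and -0.36, against 0.67 and 0.77, in the same groups. The pairs were apart in both genes, and also in Isl1 1450723_at and Sp8. The log2 difference, rtTA-Dmrt5 minus rtTA, was -1.74 ± 0.34 for Dlx2 (adjusted p = 0.0062), -1.48 ± 0.25 for Isl1 1450723_at (0.003), -1.09 ± 0.23 for Dlx1 (0.0091) and -0.90 ± 0.13 for Sp8 (0.0015) in limma. These were 4 of 10 probe sets, where 9.95% of all were called lower and 8.72% higher. In the fit of probe sets at a level of 4 or above alone, 34.5% were called in either direction, against 18.7% over all. The Dlx1 call was lost without the second rtTA -Dox array (adjusted p = 0.051) and without the second rtTA-Dmrt5 day 7 -Dox array (0.0519), and the Dlx2 call without the first rtTA -Dox array (0.0539) and without the second rtTA-Dmrt5 day 7 -Dox array (0.0568). Gsx1 differed by -0.36 ± 0.33 and Isl1 1422720_at by -0.52 ± 0.30, and neither passed. Gsx2 had a higher value in rtTA-Dmrt5 cells, by 0.42 ± 0.16 (adjusted p = 0.1), and it passed in the fit without the 4 day 9 arrays (adjusted p = 0.0391). Nkx2-1 differed by -0.42 ± 0.18 (adjusted p = 0.14), by -0.67 without the first rtTA -Dox array (adjusted p = 0.043) and by -0.16 without the second (adjusted p = 0.625).

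In arrays labelled day 7 +Dox, 6 of 10 probe sets (5 of 9 genes) were lower in rtTA-Dmrt5 than in rtTA cells, where 6.81% of all were called lower and 7.83% higher. In the fit of probe sets at a level of 4 or above alone, 27.4% were called in either direction, against 14.6% over all. This comparison shares its rtTA-Dmrt5 arrays with the day 7 Dox response, so the values stand side by side and do not support each other. Isl1 1450723_at differed by -3.60 ± 0.25 (adjusted p = 1.3e-05), Gsx1 by -2.88 ± 0.33 (0.00026), Dlx2 by -2.57 ± 0.34 (0.00066) and Dlx1 by -2.09 ± 0.23 (0.00021) in limma. Isl1 1422720_at differed by -2.04 ± 0.30 (0.0013) and Sp8 by -1.96 ± 0.13 (1.1e-05). All 6 calls held in each fit that left out 1 array. Dlx5 had -0.66 ± 0.25 (adjusted p = 0.12), and Dlx6, Gsx2 and Nkx2-1 had 0.24, 0.03 and 0.02.

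The order of the 6 groups differed between the members. The mean of Gsx1 was highest in rtTA +Dox at 0.42, followed by rtTA -Dox at 0.29, rtTA-Dmrt5 day 9 -Dox at 0.16 and day 7 -Dox at -0.07; neighbours overlapped among the first 3 of these groups and not below them. Gsx1 was lowest in rtTA-Dmrt5 day 7 +Dox at -2.45 and day 9 +Dox at -2.48, which overlapped. Sp8 had no overlap between neighbours in the order: rtTA -Dox at 1.16, rtTA +Dox at 0.96, rtTA-Dmrt5 day 7 -Dox at 0.26, day 9 -Dox at -0.26, day 7 +Dox at -1.0 and day 9 +Dox at -1.95. Dlx1 had means of 1.09 in rtTA +Dox and 0.72 in rtTA -Dox, and Dlx2 had 1.17 in rtTA +Dox and 1.23 in rtTA -Dox. In both genes these were the highest groups, followed by rtTA-Dmrt5 day 9 -Dox and day 7 -Dox, with both +Dox groups of rtTA-Dmrt5 lowest. Their lowest group was unlike: day 9 +Dox at -1.11 for Dlx1, which overlapped day 7 +Dox, and day 7 +Dox at -1.40 for Dlx2, which did not overlap day 9 +Dox at -0.97. The day 9 +Dox and day 7 -Dox arrays of Dlx2 overlapped. Over the 6 group means the range was widest for Isl1 1450723_at, at 3.60, and narrowest for Nkx2-1, at 0.42, and Gsx2, at 0.43.

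The genes whose profiles over the 12 arrays were most like those of the members were read as a description, by Pearson correlation over arrays that share their groups and processing. For Gsx1 they were the neurofilament genes Nefm (r = 0.984) and Nefl (0.980) and the adhesion receptor gene Adgrv1 (0.982). For Isl1 1450723_at they were Chn1 (0.983), Nefl (0.981) and the homeobox gene Meis2 (0.980). For Sp8 they were Plch1 (0.985), Greb1l (0.978) and Pax6 (0.974), a paired homeobox factor of dorsal telencephalic progenitors. For Dlx1 they were Garem2, the retinoic acid degrading enzyme gene Cyp26b1 and 4833439L19Rik (0.966 to 0.968), and for Dlx2 Stk39, Map4 and Pbx3 (0.971 to 0.984). Dlx5 was most like Rab12 (0.970), Dnajb5 and the migrating neuron gene Dcx (0.898). The flat members gave lower values, from 0.916 to 0.939 for Gsx2, 0.904 to 0.915 for Dlx6 and 0.866 to 0.903 for Nkx2-1.

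The genes around the members in the same pathway were read from lists of their partners. A gene was counted as higher or lower where any of its probe sets was called so, which of all genes gave 18.6% higher and 12.4% lower at day 9, 2.35% higher and 3.06% lower at day 7, and 0% in either direction in rtTA cells. A gene with more probe sets has more chances to be counted. Some lists hold more per gene: 70 for 21 GABAergic genes and 36 for 15 pan-neuronal genes, against 34945 for 18193 genes in all. Of genes tied to GABAergic differentiation downstream of Dlx factors, 21 of 25 were measured. At day 9, 12 were lower and 4 higher in arrays labelled +Dox, and at day 7, 9 were lower and 2 higher. Gad2, an enzyme that makes GABA, differed by -2.34 ± 0.15 at day 9 (limma adjusted p = 2.18e-05) by its probe set of smallest p, and Meis1, a homeobox cofactor, by -2.13 ± 0.12 (limma adjusted p = 1.27e-05). The POU factor Pou3f4 and the striatal factor Ebf1 differed at day 9 by -2.44 ± 0.15 and -1.76 ± 0.12, and at day 7 by -2.80 ± 0.15 and -1.57 ± 0.12. Somatostatin (Sst), a peptide of a class of cortical interneurons, differed at day 7 by -1.88 ± 0.15 (limma adjusted p = 0.000177). Not all moved down: Bcl11b, a striatal factor, and Maf, an interneuron factor, were higher at both days, and Foxp1 and Npy at day 9. The list median was -0.25 at day 9 and -0.20 at day 7, against -0.02 and 0.01 over all probe sets.

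Of the ventral progenitor partners, 8 of 10 were measured. At day 9, 2 were lower (Gbx1 and Gbx2) and 1 higher (Olig2), and at day 7, 3 were lower (Gbx2, Olig1 and Olig2). Olig2, a helix-loop-helix factor of ventral progenitors, differed by 0.92 ± 0.20 at day 9 and -1.68 ± 0.20 at day 7 (limma adjusted p = 0.0132 at day 9 and 0.00167 at day 7), with opposite signs. Of the ventral signals and their targets, all 10 were measured; 5 were higher and 1 lower at day 9, and 2 were higher and 1 lower at day 7. Shh, the ligand that patterns the ventral neural tube, was the lower one at both days, by -1.49 ± 0.30 at day 9 and -1.65 ± 0.30 at day 7. Its target Gli1 was higher, by 0.72 ± 0.14 at day 9 and 1.0 ± 0.14 at day 7. Of 11 dorsal telencephalon genes, 6 were lower and 3 higher at day 9, and 6 were lower and none higher at day 7. The higher ones were Emx1, Eomes and Tbr1, and Eomes differed by 0.96 ± 0.12 at day 9 (limma adjusted p = 0.000748). Nr2e1, an orphan receptor of forebrain progenitors, differed by -4.46 ± 0.25 at day 9 and -3.52 ± 0.25 at day 7 (limma adjusted p = 1.33e-05 and 0.000108), and Pax6, by its probe set of smallest p, by -2.15 ± 0.16 at day 9 and -1.93 ± 0.16 at day 7. No gene of these 4 lists was called in rtTA cells.

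**Figure D4:**
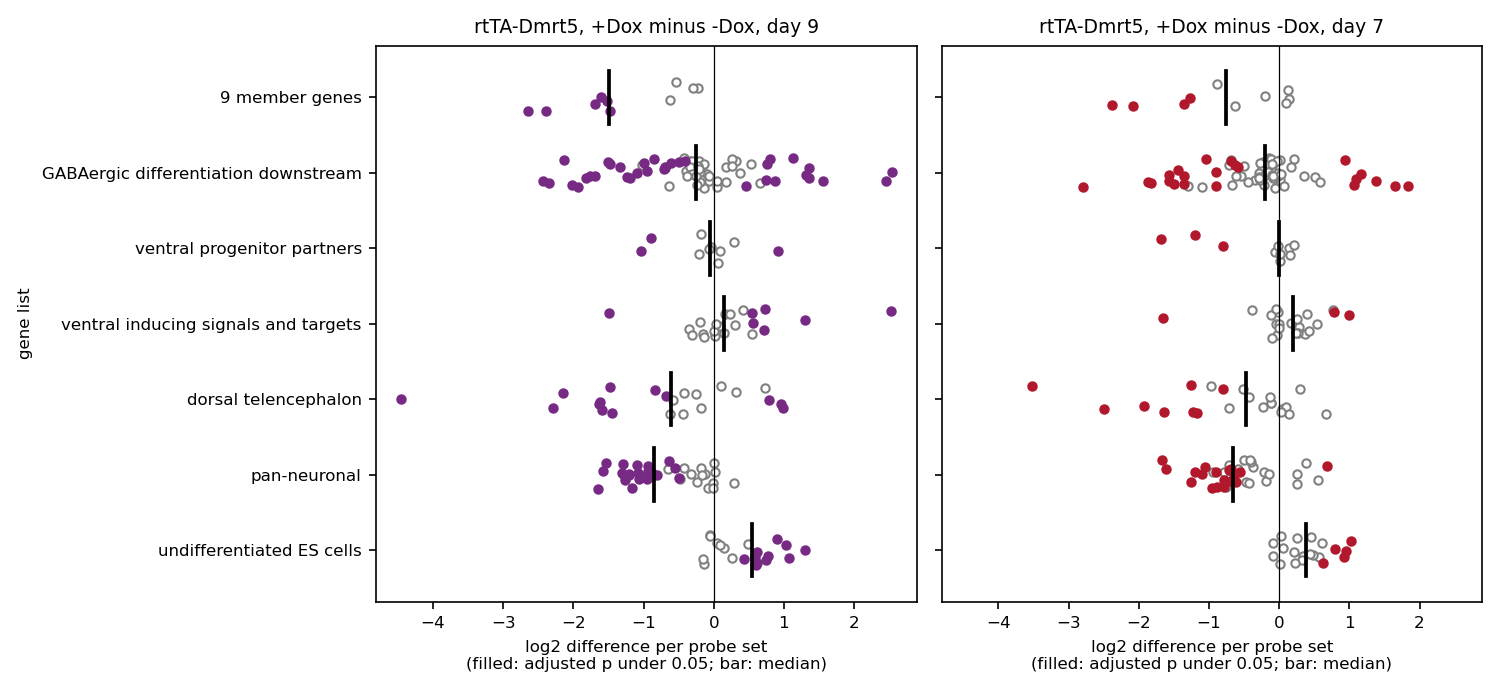
Log2 difference between rtTA-Dmrt5 arrays labelled +Dox and -Dox (x axis) at day 9 and day 7 for each probe set of the 9 genes and of 6 gene lists (y axis); filled points have an adjusted p under 0.05 and bars are medians. The bar of the 9 genes lies at -1.50 at day 9 and -0.76 at day 7, that of the pan-neuronal list at -0.84 and -0.66, and that of the ES cell list at 0.54 and 0.39.

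Markers of other cells moved with the same contrasts. Among all genes, 18.6% were higher and 12.4% lower at day 9, and 2.35% higher and 3.06% lower at day 7. Each average is over all probe sets of a list, so a gene with several probe sets weighs more. The 36 pan-neuronal probe sets averaged -0.30 and -0.23 in rtTA-Dmrt5 arrays labelled day 9 +Dox, against 0.44 and 0.50 in day 9 -Dox arrays. They averaged -0.77 and -0.88 in day 7 +Dox arrays, against -0.24 and -0.25 in day 7 -Dox arrays. Of the 15 pan-neuronal genes, 12 were lower and none higher at day 9, and 11 lower and 1 higher at day 7. In rtTA cells the 36 probe sets averaged 0.26 and 0.09 in +Dox arrays, against 0.19 and 0.08 in -Dox arrays. Of 12 genes of undifferentiated ES cells, 8 were higher and none lower at day 9 and 4 were higher and none lower at day 7, with averages of 0.30 and 0.25 in day 9 +Dox arrays, against -0.17 and -0.21 in day 9 -Dox arrays, and -0.45 and -0.39 in day 7 +Dox arrays, against -0.87 and -0.79 in day 7 -Dox arrays. Of 11 endoderm genes, 8 were higher and 1 lower at day 9 and 2 higher and none lower at day 7. Their 25 probe sets averaged 0.84 and 0.61 in day 9 +Dox arrays, against 0.01 and 0.07 in day 9 -Dox arrays. At day 7 they averaged 0.40 and 0.46 in +Dox arrays, against -0.06 and -0.11 in -Dox arrays. Cxcr4, lower at day 9, is in both the endoderm and the GABAergic list. Of 13 measured genes of surface epithelium and placodes, 9 were higher and 2 lower at day 9 and 3 higher and none lower at day 7, with averages of 0.27 and 0.23 in day 9 +Dox arrays, against -0.21 and -0.23 in day 9 -Dox arrays. The part of these cells in the values of the 9 genes was not tested.

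Genes used by other cells that express Isl1 or Nkx2-1 were counted in the same way, where 18.6% of all genes were higher and 12.4% lower at day 9. At day 7, 2.35% of all genes were higher and 3.06% lower. Of 9 measured motor and sensory neuron genes, 3 were lower at day 9 (Pou4f1, Tlx3 and Lhx3) and 1 at day 7 (Pou4f1), and none was higher. The motor neuron genes Mnx1, Isl2, Lhx3, Chat and Slc18a3 had no probe set whose median log2 level was read as 4 or above. Of 10 hypothalamus and eye field genes, 2 were higher and 5 lower at day 9, and 2 higher and 2 lower at day 7. Of 11 neural crest genes, 3 were higher and 3 lower at day 9, and 2 were lower and none higher at day 7. Of 8 measured telencephalon genes, 3 were lower and 3 higher at day 9, and 4 were lower and none higher at day 7. This list largely repeats the dorsal telencephalon list: Emx1, Emx2, Eomes, Lhx2, Nr2e1 and Tbr1 are in both. Six3 is in both the telencephalon and the hypothalamus and eye field list.

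The same markers stood apart between the lines. In arrays labelled day 7 -Dox, 9 of 15 pan-neuronal genes were lower and 2 higher in rtTA-Dmrt5 than in rtTA cells, 11 of 12 ES cell genes were lower and 1 higher, 6 of 8 telencephalon genes were higher and 1 lower, and 5 of 11 endoderm genes were higher and 2 lower. Of all genes 15.2% were higher and 15.6% lower. So the lower values of Dlx1, Dlx2, Isl1 and Sp8 in rtTA-Dmrt5 cells stood beside lower pan-neuronal and ES cell genes and higher telencephalon genes. In arrays labelled day 7 +Dox, 14 of 15 pan-neuronal genes were lower and 1 higher in rtTA-Dmrt5 cells, 11 of 12 ES cell genes were lower and 1 higher, 7 of 11 endoderm genes were higher and 1 lower, 7 of 11 neural crest genes were lower and 1 higher, and 3 of 8 telencephalon genes were higher and 1 lower, where 13.1% of all genes were higher and 11% lower. The 25 endoderm probe sets averaged 0.40 and 0.46 in rtTA-Dmrt5 +Dox arrays, against -0.93 and -1.11 in rtTA +Dox arrays. The part of these markers in the differences between lines was not tested.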

How the data were processed

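RNA for 12 arrays was amplified with a NuGEN Ovation kit and hybridised to Affymetrix arrays, as the labels' protocols describe. The authors deposited log2 values made with RMA, per the submitters' processing notes; neither its version nor a genome build is given in the sources used here. The log's base is not named and was taken as 2, as RMA defines it. Each probe set is centred: its median over 12 arrays is 0 within 5e-07, a step no source mentions. Larger was taken as more RNA; scanner files were not analysed here. The spacing of the single-precision values gave the power of 2 in which each median level lay, except for 877 probe sets.

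limma 3.58.1 in R 4.3.3 fitted a mean per group over all 12 arrays to 45037 probe sets, with eBayes (6 residual and 3.92 prior degrees of freedom) and two-sided tests adjusted within each of 9 comparisons. The fit and the level reading were tested on simulated data. Tables and plots were made in Python 3.11.15 (pandas 2.3.3, matplotlib 3.10.9). The number of arrays limits the precision.

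The rule for named genes was all 9 members, Dmrta2, up to 4 genes per list with the smallest p, and the 3 genes most like each member; names beyond it, given where a list count is small or an individual gene is singled out, were chosen after their values were seen. The members, the lists and the tests were chosen with earlier results of these data known. Alternatives were gene-level means, the compared arrays alone, array weights, a replicate block, centring or quantile normalising the arrays again, a level filter at 4 and leaving out each array. The fit without the 4 day 9 arrays was added after seeing the data. Deviations of same-numbered arrays correlated by 0.03 in rtTA cells and by 0.14 at day 9 and -0.06 at day 7 in rtTA-Dmrt5 cells, so replicate numbers were not taken to pair samples.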

Additional observations from a re-analysis of the deposited data

Results flagged for a closer look

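In the day 7 Dox response, 3 probe sets gave a difference between the lines by a test of the difference itself, rtTA-Dmrt5 minus rtTA. Gsx1 1450002_at had a log2 difference of -2.51 in that response, with -2.38 in rtTA-Dmrt5 and 0.13 in rtTA cells. Isl1 1450723_at had -2.11, with -2.09 in rtTA-Dmrt5 and 0.02 in rtTA cells. Sp8 1440519_at had -1.06, with -1.27 in rtTA-Dmrt5 and -0.21 in rtTA cells. Groups of 2 arrays are too small for a test of single outlying arrays.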

How the results depend on the processing

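No log2 difference of a called probe set changed sign under any alternative run. With the replicate block, the difference of the Dox response between lines gave 0 calls among the 10 probe sets, against 3 without it (adjusted p = 0.0737 for Gsx1, 0.0983 for Isl1 1450723_at and 0.0874 for Sp8), day 9 minus day 7 without Dox gave 0 against 1 (Sp8, adjusted p = 0.0769), and Isl1 1422720_at at day 7 was lost (adjusted p = 0.113); the block changed no other call of the 10. For day 9 minus day 7 without Dox the count was 1 and became 2 with only the arrays compared, and 3 with gene-level means, array weights, repeated quantile normalisation or the level filter, where Dlx1 and Dlx5 were called higher. Sp8 was lost there with only the arrays compared (adjusted p = 0.0574). Isl1 1422720_at at day 7 was lost with only the 4 arrays compared (0.0852) and without the day 9 arrays (0.0839). Leaving out each array in turn, the calls numbered 3 to 4 for the Dox response at day 7, 5 to 8 at day 9, 0 to 0 in rtTA cells, 0 to 3 for its difference between lines, 0 to 0 between days, 0 to 2 for day 9 minus day 7 without Dox, 1 to 2 with Dox, 2 to 4 between lines without Dox and 6 to 6 with Dox. Over all probe sets, calls at day 7 numbered 1372, against 775 with only the arrays compared, 2666 with array weights and 2557 after repeated quantile normalisation; at day 9 they numbered 8230, against 3426 with only the arrays compared. The difference between lines had 468, against 225 with the block and 875 after quantile normalisation, and that between days 288, against 72, 0 with the block and 631 with the level filter. Day 9 minus day 7 had 3447 without Dox and 4098 with Dox, against 1984 and 1491 with only the arrays compared. In rtTA cells the block gave 1, against 0. Gene-level means, over 18193 genes, gave 4518 calls for the Dox response at day 9, 2418 for day 9 minus day 7 with Dox, and 4887 without Dox and 4158 with Dox between lines, where probe sets gave 8230, 4098, 8408 and 6595. Leaving out 1 array gave 496 to 1499 calls over all probe sets for the Dox response at day 7, 4068 to 8176 at day 9, 173 to 471 for its difference between lines, 5 to 625 between days, 1210 to 3850 for day 9 minus day 7 without Dox, 1299 to 4053 with Dox, 4100 to 9100 between lines without Dox and 3855 to 7148 with Dox. The cause of these changes was not tested. Some of these fits also held fewer arrays or probe sets. Precision is limited by 2 arrays per group. The probe sets of Gsx2 and Dlx6 were dim, and their power to show a fall was not tested.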
